A study of Mus musculus with 81 samples.

Results

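The macrophage genes described here are a list of 32 mouse genes used as markers of macrophages, 31 of which have a row among the 22869 gene symbols of the deposited table. The remaining gene is not analysed here. Where a gene had several transcript rows, the row of highest mean over the cells was used. The genes were described over 81 single cells from wild-type CD1 mouse pancreata at embryonic day 13.5. The tissue was dispersed with trypsin, cells were loaded on a microfluidic device, and each cell gave a cDNA library (SMARTer amplification, Nextera XT tagging) with its own pair of index sequences, which the labels give for each cell as 8 bases each. All cells are of one group, no gene was altered and no treatment is named. No animal is named for any cell, so the cells count as 1 sample and no p-value is given. Levels are RPKM, read counts scaled by transcript length and library size, so that genes can be compared per length. The libraries held an estimated median of 3527480 reads, and the 4 shallowest held 19853, 72410, 196830 and 418359.

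Macrophages are phagocytes of the innate immune system that settle in most organs before birth, where they clear dying cells and take part in tissue remodelling. They are recognised by receptors that bind antibody, complement or modified proteins, by adaptor proteins through which many of these receptors signal, and by lysosomal enzymes that digest what is taken up. Survival of most tissue macrophages depends on the receptor Csf1r, and their progenitors in the embryo come from the yolk sac and fetal liver.

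The cells called Tyrobp-high below are those with at least 500 RPKM of Tyrobp, the adaptor (DAP12) that carries an activating motif for many myeloid receptors. They were 4 of the 81 cells (4.94%, exact 95% interval 1.36 to 12.2%, counting error only), namely C2, C31, C36 and C54. Tyrobp stood at 1239.8 RPKM in C2, 3019 in C31, 866.5 in C36 and 1131 in C54, and these values chose the cells. The lowest value inside the threshold was the 866.5 RPKM of C36. The highest outside was 88.5 RPKM in C3, a library of about 19853 reads in which that level rests on about 1 read. The estimated depth of the Tyrobp-high cells was 2888060 reads in C2, 1971090 in C31, 4742600 in C36 and 2882290 in C54. Genes at 1 RPKM or more numbered 3767, 2973, 4796 and 3341 in the same order.

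Promoter sequences of 6 members are shown because they span the evenness described below: Fcer1g and Fcgr1 were carried evenly by the 4 cells, C1qb, C1qc and Mrc1 at more spread levels, and Pf4 was listed at 0 in one cell and at 3094 RPKM in another. Each is the 250 bases before the transcript start on the gene's own strand, 5′ to 3′, from RefSeq (GRCm38.p6), a build other than the mm9 of the deposited table. Capitals mark GAGGAA, a purine-rich sequence that contains the GGAA core bound by ETS-family transcription factors, or its reverse complement TTCCTC. The core GGAA outside these matches is not marked.
Fcer1g (chr1:171234350-171234599, minus strand): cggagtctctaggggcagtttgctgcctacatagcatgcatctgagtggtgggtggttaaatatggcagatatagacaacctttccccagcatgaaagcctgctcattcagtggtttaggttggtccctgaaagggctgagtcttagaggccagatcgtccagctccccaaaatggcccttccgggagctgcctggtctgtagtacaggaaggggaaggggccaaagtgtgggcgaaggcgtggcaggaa
Fcgr1 (chr3:96293970-96294219, minus strand): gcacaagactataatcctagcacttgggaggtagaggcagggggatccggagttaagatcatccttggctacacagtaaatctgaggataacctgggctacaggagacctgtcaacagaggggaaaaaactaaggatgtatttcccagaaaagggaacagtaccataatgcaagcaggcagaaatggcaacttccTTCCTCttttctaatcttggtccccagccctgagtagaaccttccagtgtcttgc
C1qb (chr4:136886201-136886450, minus strand): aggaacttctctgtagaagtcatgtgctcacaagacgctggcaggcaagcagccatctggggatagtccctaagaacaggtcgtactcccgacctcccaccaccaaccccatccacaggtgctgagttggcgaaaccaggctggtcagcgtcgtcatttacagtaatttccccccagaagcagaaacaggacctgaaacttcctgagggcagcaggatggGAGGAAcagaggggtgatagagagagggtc
C1qc (chr4:136892915-136893164, minus strand): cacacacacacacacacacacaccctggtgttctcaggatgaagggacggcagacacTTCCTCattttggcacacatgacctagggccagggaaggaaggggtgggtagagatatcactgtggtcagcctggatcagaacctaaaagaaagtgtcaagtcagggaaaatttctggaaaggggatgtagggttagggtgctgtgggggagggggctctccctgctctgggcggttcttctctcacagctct
Mrc1 (chr2:14229164-14229413, plus strand): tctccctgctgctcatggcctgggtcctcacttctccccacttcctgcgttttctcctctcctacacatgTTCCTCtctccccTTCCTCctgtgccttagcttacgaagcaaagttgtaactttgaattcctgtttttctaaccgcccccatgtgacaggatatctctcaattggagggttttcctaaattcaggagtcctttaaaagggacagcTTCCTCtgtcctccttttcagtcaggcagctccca
Pf4 (chr5:90772185-90772434, plus strand): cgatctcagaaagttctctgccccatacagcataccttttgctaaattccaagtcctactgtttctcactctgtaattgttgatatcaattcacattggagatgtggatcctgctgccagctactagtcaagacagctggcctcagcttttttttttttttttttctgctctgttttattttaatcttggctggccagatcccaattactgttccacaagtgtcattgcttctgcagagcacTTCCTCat

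Of the 25 members with a promoter entry, 17 (68%) held GAGGAA on either strand in these 250 bases, against 6986 of 27025 genes in the same table (25.9%). The longer GAGGAAGT, which contains it, was found in 3 of the 25 members (12%) and in 755 of the 27025 genes (2.79%). Mrc1 held 3 matches of GAGGAA. Fcer1g, whose span over the 4 cells was the smallest of the members above 0 in each of them, held none. Its window does contain the shorter GGAA. Such a match is a count of letters in a window and shows no binding.

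Of the 31 members, 20 were at 1 RPKM or more in every Tyrobp-high cell, against 7.03% of the 13237 genes above 0 in at least 3 cells. At 10 RPKM or more in every such cell stood 16 members, against 3.1% of all genes. Tyrobp is in both counts by the choice of cells, and without it they were 19 and 15 of 30. Per cell, 27 members reached 1 RPKM in C2, 25 in C31, 25 in C36 and 28 in C54. Summed over the members the level was 5572 RPKM in C2, 21513 in C31, 4595 in C36 and 11960 in C54, which is 2.51, 8.58, 2.09 and 4.08% of all RPKM in those cells. C31 thus had the largest share of member RPKM and the highest value for 20 members, although its library was the shallowest of the 4. RPKM is relative to each library, so the amount of member RNA per cell is not known. C54 was highest for 8 members, C2 for 2 and C36 for 0, and C36 alone was lowest for 14.

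**Figure D1:**
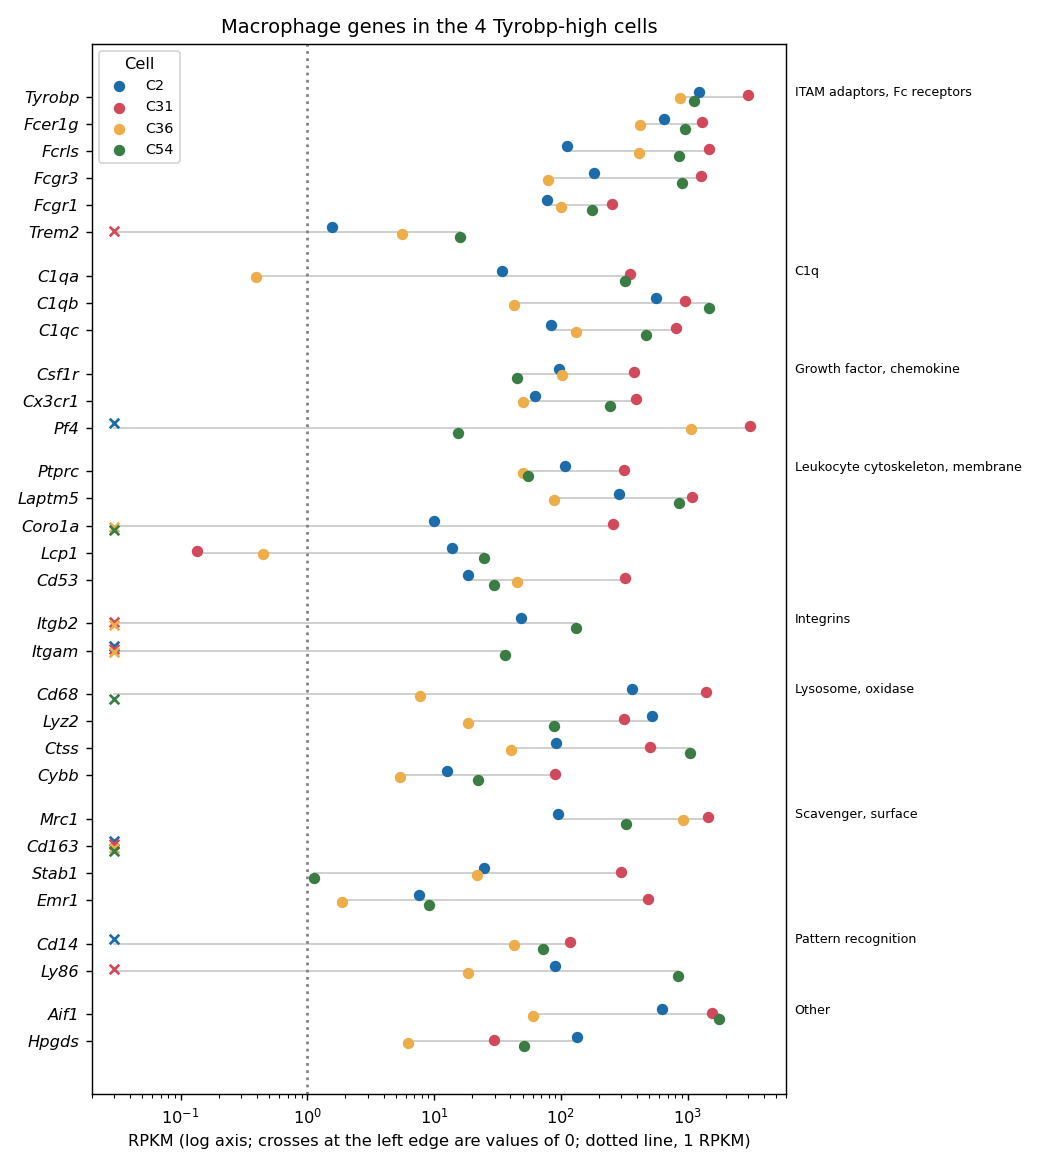
Level of each of the 31 members in the 4 Tyrobp-high cells, in RPKM on a log axis, 1 point per cell, with members ordered by role and a dotted line at 1 RPKM. Values of 0 are crosses at the left edge, and Fcer1g and Fcgr1 show tightly placed points while Pf4, C1qa and Cd68 span the axis.

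Evenness was described by 2 limits. A member was called uniform when it was at 10 RPKM or more in all 4 cells with log2(RPKM + 1) values within 2 units, and variable when it was under 1 RPKM in at least 1 cell and at 10 RPKM or more in another. By these limits 3 members were uniform, against 1.25% of the 13237 genes above 0 in at least 3 cells. Variable members were 10 of 31, close to the 33.8% of those genes, so being variable did not set the members apart. Tyrobp chose the cells and could not be variable, and without it 2 of 30 members were uniform. The other 18 met neither limit, among them Cd163, which was listed at 0 in every cell. Leaving out C2 gave 5 uniform members, leaving out C31 gave 6, leaving out C36 gave 6 and leaving out C54 gave 4. By these limits, leaving out a cell can only keep or raise this count.

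Among the adaptors and antibody receptors, the uniform members were Tyrobp, Fcer1g and Fcgr1. Fcer1g, the gamma chain that pairs with several Fc receptors (chr1:173159703-173164480, minus strand, mm9), stood at 651 RPKM in C2, 1303 in C31, 418.0 in C36 and 958 in C54, a 3.12-fold span. Fcgr1, the high-affinity receptor for IgG (chr3:96086832-96097892, minus strand), stood at 77.6, 255, 100.5 and 176 RPKM in C2, C31, C36 and C54, a 3.29-fold span. Both were highest in C31, and neither had a cell that stood far below the rest.

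The low-affinity IgG receptor Fcgr3 stood at 183 RPKM in C2, 1264 in C31, 79.4 in C36 and 897 in C54. Reads of 50 bases from Fcgr3 match another gene in 12.8% of their positions, so part of its level could have been assigned elsewhere. Fcrls, a member of the Fc receptor-like family, stood at 112, 1472, 413 and 855 RPKM. The span was 15.9-fold for Fcgr3 and 13.1-fold for Fcrls, with C31 and C54 above the others, C36 lowest for Fcgr3 and C2 lowest for Fcrls. Trem2, a lipid receptor that signals through Tyrobp, was low and variable at 1.58 RPKM in C2, 0 in C31, 5.60 in C36 and 15.97 in C54.

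The complement subunits C1qa, C1qb and C1qc, which together form the recognition molecule of the classical pathway, are neighbouring genes within chr4:136436061-136454759 (minus strand, mm9). C1qb stood at 568 RPKM in C2, 951 in C31, 42.95 in C36 and 1481 in C54. C1qc stood at 84.04, 814, 132 and 466 RPKM. C1qa stood at 34.4, 348, 0.391 and 320.1 RPKM. All 3 were high in C31 and C54. C1qa was under 1 RPKM in C36, a value that rests on about 2 reads, where C1qc was at 132. C1qb was above C1qc in C2 and below it in C36, so the listed levels did not keep a fixed ratio from cell to cell. The span was 34.5-fold for C1qb, 9.68-fold for C1qc and 890.5-fold for C1qa, which was therefore called variable.

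Of the growth and chemokine genes, Csf1r, the receptor for the growth factors Csf1 and Il34, was at 96.1 RPKM in C2, 379 in C31, 102 in C36 and 44.9 in C54. Cx3cr1, the receptor for fractalkine, stood at 62.8, 389, 50.03 and 244 RPKM. Both were highest in C31. Pf4, a platelet-type chemokine also made by some macrophages (chr5:91201461-91202409, plus strand, mm9), was listed at 0 in C2, at 3094 RPKM in C31, 1065 in C36 and 15.3 in C54. C31 and C36 were high and C2 and C54 low for Pf4, an order not seen for the complement genes. Of megakaryocyte markers, 5 of 6 were at 0 in every Tyrobp-high cell and the sixth was at 0.187 RPKM in C2.

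Of the genes shared by leukocytes, Ptprc (CD45, a phosphatase of all nucleated blood cells) stood at 107, 315, 50.3 and 55.3 RPKM in C2, C31, C36 and C54. Laptm5, a lysosomal membrane protein of blood cells, stood at 288, 1093, 88.3 and 856 RPKM. Cd53, a tetraspanin, stood at 18.4, 318, 45.4 and 29.7 RPKM. All 3 were highest in C31 and above 18 RPKM in each cell. Coro1a, an actin-binding protein, was at 9.93 RPKM in C2 and 256 in C31 and listed at 0 in C36 and C54. Lcp1, the actin-bundling protein L-plastin, was at 13.9, 0.134, 0.449 and 24.7 RPKM. Coro1a and Lcp1 were thus variable and their high cells differed. The integrin beta chain Itgb2, which pairs with Itgam, was at 48.4 RPKM in C2 and 131 in C54 and listed at 0 in C31 and C36. The alpha chain Itgam was at 36.4 RPKM in C54 and listed at 0 in the other 3. Both integrin chains were thus highest in C54. Itgam shares 72.4% of its 50-base stretches with another gene, and its level is uncertain.

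The lysosomal and oxidase members were spread over the cells. Cd68, a membrane glycoprotein of lysosomes, was at 364 RPKM in C2 and 1395 in C31, at 7.71 in C36 and listed at 0 in C54. Lyz2, lysozyme M, was at 522, 315, 18.5 and 88.6 RPKM, and 15.4% of its 50-base stretches are shared with another gene. Ctss, the protease cathepsin S, was at 91.8, 507, 40.7 and 1041 RPKM. Each had a different highest cell, namely C31 for Cd68, C2 for Lyz2 and C54 for Ctss, and the lowest was C36 for both Lyz2 and Ctss. Cybb, the catalytic subunit of the phagocyte oxidase, was at 12.7, 89.7, 5.40 and 22.4 RPKM and was listed at 0 in the 77 other cells.

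Mrc1, the mannose receptor (chr2:14151041-14253650, plus strand, mm9), was at 95.4 RPKM in C2, 1459 in C31, 912 in C36 and 326 in C54, above 95 in each cell. Stab1, a scavenger receptor (chr14:31952203-31981827, minus strand), was at 24.7, 296.0, 21.9 and 1.13 RPKM. Emr1 (F4/80, an adhesion receptor used as a macrophage label) was at 484 RPKM in C31 and 1.88 to 9.10 in the other 3. Cd163, a haemoglobin scavenger receptor, was listed at 0 in all 81 cells. Mrc1, Stab1 and Emr1 were all highest in C31. Mrc1 overlaps the microRNA gene Mir511 on the same strand, so strand could not separate the reads of that pair. Stab1 overlaps Nt5dc2 on the opposite strand, and the counting strand is not stated, so reads of that pair cannot be told apart here.

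Of the remaining members, the pattern recognition receptor Cd14 was listed at 0 in C2 and at 118, 42.4 and 72.3 RPKM in C31, C36 and C54. Ly86, a partner of the receptor Cd180, was at 90.6, 0, 18.6 and 843 RPKM in C2, C31, C36 and C54. Cd14 and Ly86 were variable, each with its 0 in a different cell. Aif1, the calcium-binding protein Iba1, stood at 632 RPKM in C2, 1548 in C31, 60.003 in C36 and 1767 in C54. Hpgds, a prostaglandin D synthase, stood at 133, 29.9, 6.18 and 51.2 RPKM. Both Aif1 and Hpgds were lowest in C36.

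Of 30 members above 0 in at least 3 cells, 26 had a mean log2(RPKM + 1) in the Tyrobp-high cells at least 3 units above the mean of the other 77, against 1.78% of the 13237 genes, and 0 had a mean at least 3 units below, against 0.567%. The median difference was 6.31 log2 units over the members and -0.19 over all genes. Tyrobp chose the cells, so these sizes are a description. Trem2 and Cybb were above 0 in Tyrobp-high cells alone and passed the filter of 3 cells through them. Cybb had to differ for that reason and is among the 26, which without it and Tyrobp are 24. The 4 members of smaller difference were Coro1a (2.79), Lcp1 (2.31), Trem2 (2.04) and Itgam (1.27).

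In the other 77 cells, 28 of the 31 members were above 0 somewhere. Of the 31, 20 reached 1 RPKM in at most 1 of those cells. Over the 13237 genes above 0 in at least 3 cells the share was 5.81%. These shares are not like for like, since that filter removes genes found in few cells. The 20 include Cd163, at 0 in every cell, and Trem2 and Cybb, above 0 in Tyrobp-high cells alone. All 4 Tyrobp-high cells stood above every other cell for 16 members, against 0.295% of the 13237 genes. Tyrobp is among the 16 by the choice of cells, and 15 of the other 30 members had that order. Cybb is among these 15 and passed the filter through the Tyrobp-high cells alone, so its order is no finding. A count of 0 in 77 cells allows a share of up to 3.90% when the limit is set at 3 counts of the total, in counting error only. A median of 1 member reached 1 RPKM per cell, and the median sum over members was 3.93 RPKM, or 0.00174% of all RPKM. Of the 77 cells, 21 had 0 members at 1 RPKM, 36 had 1, 18 had 2 and 2 had more.

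**Figure D2:**
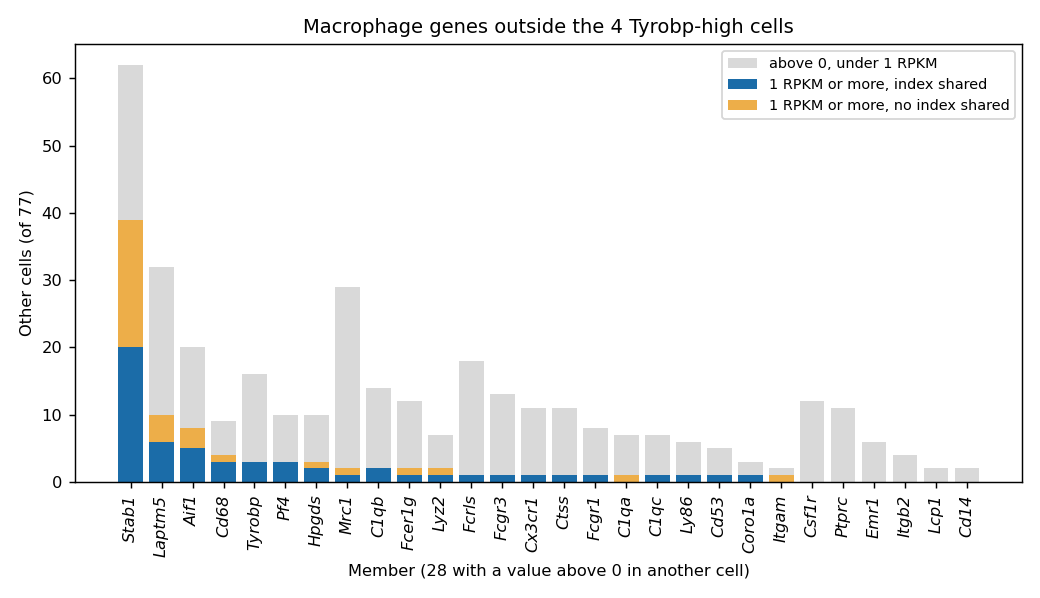
Number of the 77 other cells (bars from 0) with each of the 28 members above 0 in at least 1 of them, split into 1 RPKM or more with an index shared with a Tyrobp-high cell, the same with none shared, and under 1 RPKM. At 1 RPKM or more, Stab1 stands at 39 cells, Laptm5 at 10, Aif1 at 8 and Cd68 at 4, and all other members at 3 or fewer.

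Stab1 was the exception outside the Tyrobp-high cells. It was at 1 RPKM or more in 39 of 77 (50.6%, exact 95% interval 39.005 to 62.2%), with a median of 1.02 RPKM and a highest value of 12.3 RPKM in C73, where it rests on about 266 reads. Stab1 overlaps Nt5dc2 on the opposite strand, and the part of Nt5dc2 reads in these values was not tested. Of 37 other cells that share an index with a Tyrobp-high cell, 20 had Stab1 at 1 RPKM, as did 19 of the 40 that share none. The level of Stab1 in C54, 1.13 RPKM, was close to that median. Of 89 member values at 1 RPKM or more in the 77 cells, 50 were of members other than Stab1.

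**Figure D3:**
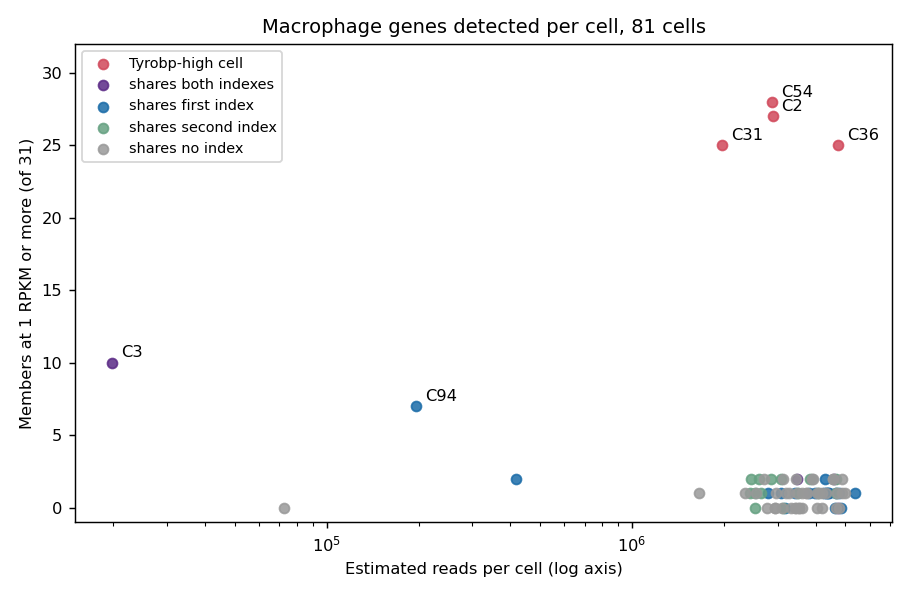
Number of members at 1 RPKM or more in each cell, against the cell's estimated reads on a log axis, coloured as Tyrobp-high or by the index shared with a Tyrobp-high cell. The 4 Tyrobp-high cells sit at 25 to 28 members, C3 at 10 and C94 at 7, and the rest at 2 or fewer.

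Outside the Tyrobp-high cells, the 2 cells with more than 2 members at 1 RPKM were C3, with 10, and C94, with 7, and their libraries are among the 4 shallowest. In C3, 1 read per kilobase is 50.4 RPKM, and its 10 values, among them Ly86 at 101 RPKM, Tyrobp at 88.5 and Aif1 at 58.0, rest on about 1 or 2 reads each. In C94, Stab1 at 11.4 RPKM rests on about 18 reads and the other 6 members on about 1 or 2. C3 shares an index with C2, C31 and C54, and C94 with C54. The part of shared indexes and depth in these values was not tested.

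Some member values in the other cells rest on many reads. Without Stab1, 15 of those at 1 RPKM or more with a transcript length rest on at least 50 reads, and part of them are given here. Fcer1g was at 88.7 RPKM (about 206 reads) in C24, a cell with Gcg at 48647 RPKM, and at 39.5 RPKM (about 123 reads) in C82, a cell whose epithelial marker sum was 634 RPKM. Hpgds was at 32.7 RPKM (about 297 reads) in C50 and Laptm5 at 29.4 RPKM (about 355 reads) in C33. Lyz2 was at 49.7 RPKM (about 251 reads) in C51. Cd68 was at 50.8 RPKM in C4 and 43.5 in C30, with no transcript length to turn these into reads. Tyrobp was under 1 RPKM in each of these 7 cells. C24 shares no index with a Tyrobp-high cell, and the others share the first, the second or both. The part of index sharing in these values was not tested. Stab1 was the one further member at 1 RPKM or more in C24, C82, C50, C51 and C4 (2.40 to 7.97 RPKM), and C33 and C30 had no further member at that level.

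Members above 0 were more frequent in cells that share an index with a Tyrobp-high cell. Without Stab1, members were above 0 in 32.5% of member and cell pairs in the 4 cells whose first and second index each occur in some Tyrobp-high cell, 21.1% in the 19 that share the first, 23.3% in the 14 that share the second and 2.50% in the 40 that share none. The median number of members above 0 was 9, 6, 7 and 0 in those groups, with ranges of 5 to 16, 1 to 14, 2 to 11 and 0 to 3. No member but Stab1 was above 0 in 22 of the 40 cells that share no index, and in 0 of the 37 that share one. Mrc1, high in the Tyrobp-high cells, was above 0 in 4 of 4, 13 of 19, 10 of 14 and 2 of 40 cells of those groups.

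**Figure D4:**
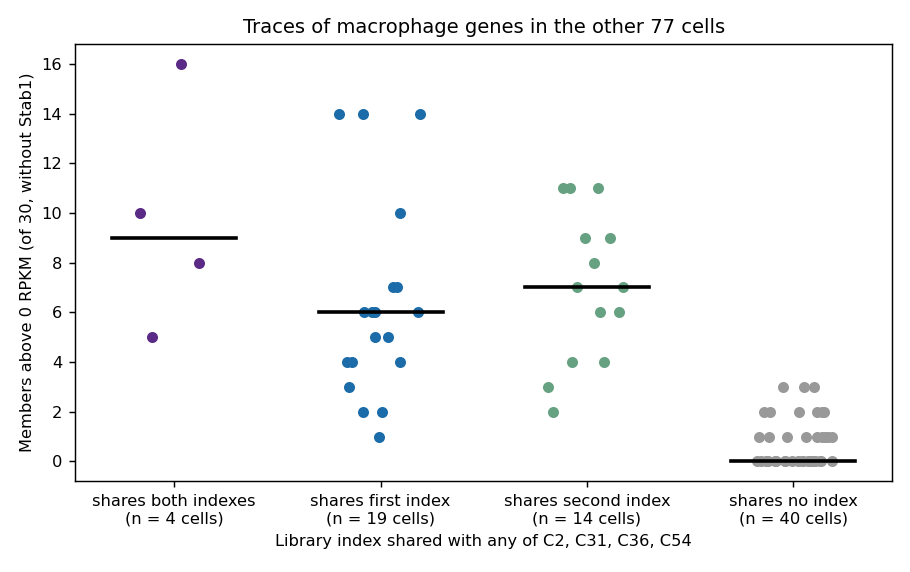
Number of members without Stab1 above 0 in each of the 77 other cells, 1 point per cell, grouped by which library index the cell shares with a Tyrobp-high cell, with the median as a bar. Cells that share both, the first or the second index sit at medians of 9, 6 and 7 members, and the 40 cells that share none at 0 to 3.

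Most of these traces rest on few reads. Of 237 member values above 0 and under 1 RPKM, again without Stab1, 221 were in the 37 cells that share an index and 16 in the 40 that share none, and 219 of the 232 with a transcript length rest on 3 reads or fewer. At 1 RPKM or more, 46 of the 50 values had a length. Of the 33 in cells that share an index, 20 rest on 3 reads or fewer and 8 on at least 50. Of the 13 in cells that share none, 1 rests on 3 or fewer and 7 on at least 50. The part of index sharing in these traces was not tested.

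Markers of other blood cells were low in the Tyrobp-high cells. All 6 dendritic, 9 lymphocyte and 7 erythroid markers were at 0 in each of the 4, as were 5 of 6 monocyte, 8 of 9 neutrophil and 5 of 6 mast cell markers. The exceptions were Plac8 at 87.2 RPKM in C2, Csf3r, the receptor for granulocyte growth factor, at 31.7 in C54, and Kit at 0.200 in C2. Epithelial and endocrine marker sums were at most 0.191 RPKM, and endothelial sums at most 0.740. Mesenchyme markers, which the other cells carried at a median sum of 372 RPKM (38.3 to 1117), summed to 232 in C2, 42.3 in C31, 223 in C36 and 57.6 in C54, led by Col1a2 at 174 RPKM in C2 and Col3a1 at 142 in C36. Their part in the levels of the members was not tested.

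Genes of macrophage pathways beyond the list were set beside it by the same limit of 3 log2 units, which 1.78% of the 13237 genes passed as higher and 0.567% as lower. Of lysosomal genes 8 of 18 were higher in the Tyrobp-high cells, of ITAM and Fc receptor signalling genes 6 of 17, of inflammatory genes 4 of 14 and of other complement genes 4 of 11. Of myeloid transcription factors 3 of 11 were higher, of efferocytosis genes 3 of 15 and of antigen presentation genes 2 of 11. Resident macrophage and microglia genes had 2 of 14, NADPH oxidase subunits 2 of 5 and receptor ligands 2 of 14. Paralogs or similarly named genes of the members had 2 of 13, and mitosis genes 0 of 8. The lists overlap, with Fcgr2b and Fcgr4 counted among both signalling genes and paralogs. Ccl2 was counted among both ligands and inflammatory genes. No gene of these lists was lower by that limit. The protease Ctsb was at 133, 724, 389 and 1165 RPKM in C2, C31, C36 and C54. The transcription factor Maf was at 320, 176, 414 and 747 RPKM, and it also reached 1 RPKM in 52 of the other cells. Both were above 100 RPKM in every Tyrobp-high cell.

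Other pathway genes also differed between the 4 cells. The chemokine Ccl2 was at 25.7 RPKM in C2, 3436 in C31, 475 in C36 and 0 in C54. The cytokine Il1b was at 0, 574, 0.157 and 253 RPKM. Both were highest in C31. The lipid carrier Apoe, a ligand of Trem2, was at 187, 934, 110.3 and 5046 RPKM, highest in C54. Irf8, a transcription factor of the myeloid lineage, was at 10.9, 324, 30.5 and 20.4. Mitosis genes summed to 4.80 RPKM in C2 and to 496, 698 and 279 in C31, C36 and C54, against a median of 236 in the other cells, so C2 was far below the other 3. Ligands of the members were also listed in the other cells, and these were named after their values were seen. Csf1, a ligand of Csf1r, was at 1 RPKM or more in 26 of the 77, with 181 RPKM in C38 as the highest. Il34, the other ligand of Csf1r, was at that level in 2 cells, and Cx3cl1, the ligand of Cx3cr1, in 4.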

How the data were processed

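Single-cell RNA levels from 81 cells of embryonic mouse pancreas were used, 1 group with no named animal, so cells were not replicates and no test was made. The authors deposited RPKM values per transcript. The file does not state the unit, which was taken from the values: multiplied by transcript length, low values fell on whole reads, with a median of 79.5% (lowest cell 75.7%) within 0.15 of a whole read. Reads per cell and per value are estimates from those steps, with lengths from GENCODE release M21 for 28590 of 29510 transcript rows. The search for the step was tried on simulated read counts. Errors in the transcript lengths or in the unit were not part of that simulation. CASAVA 1.8.2 and mm9 are named per the submitters' processing notes, while the aligner is not given in the sources used here, nor are the counter and annotation. Intervals are exact Clopper-Pearson at 95%. Level differences use log2(RPKM + 1) means for genes above 0 in at least 3 cells. 0 columns of no sample were present. Members and lists were chosen with earlier results of these data known. All members were named, with cell by cell values for uniform and variable members, the 5 found in the most other cells and the 5 highest single values outside. Listed context genes were among the 4 with the highest mean in the Tyrobp-high cells. Other values given for single cells outside, and the printed promoters, were chosen after the values were seen. Alternatives varied the Tyrobp threshold, detection level, pseudocount, filter, limits of evenness, transcript row and cells left out. Tools were Python 3.11.15, pandas 2.3.3, numpy 2.4.6, scipy 1.17.1 and matplotlib 3.10.9.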

Additional observations from a re-analysis of the deposited data

How the results depend on the processing

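Of 68 alternative values, 51 stayed within the limits set for them and 17 did not, and the cause was not tested. The limits were wide, as 18 members past 3 log2 units counted as within them. Some values could not move, since Tyrobp at 100 RPKM chose the same 4 cells. Tyrobp at 1000 RPKM chose the same 3 cells as leaving out C36, so those settings repeat each other. The 51 are therefore no measure of stability. The count of members in every Tyrobp-high cell ran from 16 to 22 (20 as reported), of members past 3 log2 units from 18 to 29 (26), and of variable members from 7 to 12 (10). Uniform members, 3 as reported, numbered 6 with Tyrobp at 1000 RPKM, 0 with a log2 range of 1, 5 with a range of 3, and 4 to 6 when 1 Tyrobp-high cell was left out. Fewer Tyrobp-high cells or a wider range could only keep or raise that count, and a narrower range only keep or lower it. Member values in the other cells, 89 at 1 RPKM, numbered 349 above 0, 37 at 5 RPKM and 21 at 10 RPKM. Cells that share an index had 4.88% of pairs at 1 RPKM, against 3.51% without the 4 shallow cells, 25.4% above 0, 2.44% at 5 RPKM and 1.48% at 10 RPKM. With Tyrobp at 1000 RPKM it was 7.31%, but that setting moves C36 to the other cells with its own 25 members at 1 RPKM. Cells that share none had 2.66%, against 4.68% above 0, 0.726% at 5 RPKM and 0.323% at 10 RPKM. Of the 21 values at 10 RPKM in the other cells, 9 were in the shallow cell C3, which shares an index. Those 9 rest on about 1 or 2 reads each. Settings without C3 were chosen after seeing the data. Values of under 3 reads limit what can be said of single cells, and with 4 cells no spread between animals is known. No paired analysis was possible because all cells belong to 1 group.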

Other observations

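Among genes outside the lists, 12 were at 10 RPKM or more in every Tyrobp-high cell and reached that level in the fewest other cells. Lst1, a leukocyte transmembrane protein, was at 146, 355, 126 and 125 RPKM in C2, C31, C36 and C54 and reached 1 RPKM in 1 other cell. The membrane proteins Ms4a7 (232, 274, 62.7 and 65.1 RPKM) and Ms4a6d (40.97, 465, 99.1 and 137) reached it in 0 other cells, as did Tnfaip8l2 (122, 119, 190.5 and 53.3) and the lectin Clec4a2 (125, 304, 17.5 and 34.7). Pld4, an endolysosomal nuclease, was at 19.7, 369, 73.8 and 570 RPKM. The other 6 were Ifi202b, Tcirg1, Mt1, Tpd52, Gm2a and Atf3, each at 10 RPKM or more in 1 to 6 other cells.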
